A study of Mus musculus with 13 samples.

Results

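The genes described here are 9 receptors and ligands that steer T cells between lymphoid organs, blood and inflamed tissue: Ccr2, Ccr4, Ccr6, Ccr7, Ccr8, Cxcr3, Cxcr4, S1pr1 and Selplg. They were taken from the array annotation as probe sets naming exactly 1 of these symbols, and each gene is given by its probe set with the highest mean over the 13 arrays. They are 9 of 22180 genes with such a probe set, and all 9 passed the filter on low signal that left 12710 genes for testing. The arrays hold RNA of CD4+ donor T cells recovered from a parent-into-F1 transfer, an acute graft-versus-host response in mice. Splenocytes of C57BL/6 mice holding 40000000 T cells, labelled with the division dye CFSE, were injected into B6D2F1 hosts aged 10 to 12 weeks. All 3 groups share this transfer, and on day 3, 72 h after transfer, CD4+ donor cells with 2 or more divisions were purified from spleen and lymph nodes with beads and a flow sort. The vehicle group (4 arrays) received the carrier on days 0, 1 and 2. The TCDD group (4 arrays) received 15 µg/kg of 2,3,7,8-tetrachlorodibenzo-p-dioxin by intraperitoneal injection on day 0. The Cl-BBQ group (5 arrays) received 10 mg/kg of that compound on days 0, 1 and 2. Both compounds bind the aryl hydrocarbon receptor, AhR, a transcription factor that moves to the nucleus and binds DNA once a ligand is bound. The TCDD group therefore differed from the vehicle group in the days of dosing as well as in the compound, and the Cl-BBQ and TCDD groups differed from each other in compound, dose and schedule.

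Chemokine receptors are G protein-coupled receptors that make a T cell move towards the source of the chemokine they bind. Naive T cells enter and stay in the lymph node through receptors such as CCR7, leave it towards the sphingosine 1-phosphate (S1P) of lymph and blood through S1PR1, and after priming exchange part of this set for receptors of chemokines made in inflamed tissue. Glycosylated PSGL-1, the product of Selplg, lets activated cells roll on the P- and E-selectin of inflamed vessels before chemokine receptors act.

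Of the 9 genes, Ccr2, Ccr4 and Selplg were higher and Cxcr4 was lower in donor CD4+ T cells of both the TCDD and the Cl-BBQ group than in those of the vehicle group. Cxcr3 was higher in the Cl-BBQ group and missed the threshold in the TCDD group. Ccr6, Ccr7, Ccr8 and S1pr1 did not pass the test in either group. These calls come from limma models over all 12710 genes with Benjamini-Hochberg adjusted p under 0.05, and values are deposited log2 intensities, so that a difference of 1 is a 2-fold change. Under TCDD 3 of the 9 genes rose, 1 fell and 5 were not called, where 6.71% of all tested genes were called, 3.21% higher and 3.5% lower. Under Cl-BBQ 4 rose, 1 fell and 4 were not called, where 11.3% of all tested genes were called, 5.31% higher and 6.03% lower. The median difference over the 9 genes was 0.20 with TCDD and 0.093 with Cl-BBQ, and over all tested genes it was -0.00089 and -0.0064. The TCDD and Cl-BBQ comparisons share the 4 vehicle arrays, so they are 2 sets of values and not independent tests. The 9 genes and the gene lists below were chosen with earlier results of these data known. Their counts beside the shares of all tested genes, here and below, are therefore a description and not a test.

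**Figure D1:**
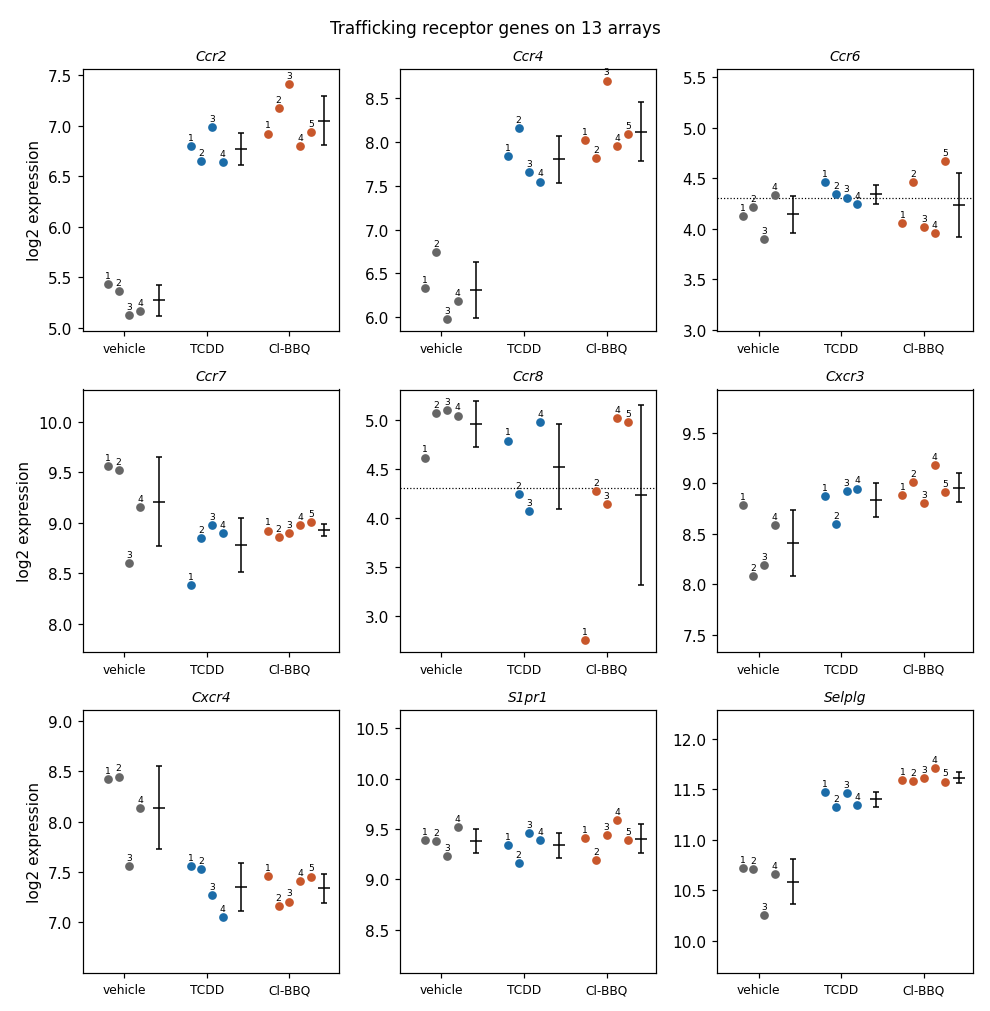
Deposited log2 intensity of each of the 9 trafficking genes on every array, with 1 panel per gene and the arrays grouped as vehicle, TCDD and Cl-BBQ. Dots are arrays numbered by replicate, and the black bar at the right of each group is the mean with its SD. The dotted line is the floor of the filter at 4.31, the median of all values and not a limit of detection. The panels for Ccr2, Ccr4 and Selplg show both ligand groups wholly above the vehicle arrays, while Ccr6 and Ccr8 lie close to the floor.

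Facts about the arrays and the sorted cells bear on these values. Array medians lay between 4.27 and 4.33, and arrays correlated with each other at 0.943 to 0.976 over all probe sets. Vehicle replicate 3 was the lowest vehicle array for 7 of the 9 genes, against 33.9% of all tested genes, and Cl-BBQ replicate 1 had the lowest mean correlation with its own group, at 0.952. All 9 T cell markers with a probe set lay above the floor, with list means of 10.83 to 11.07 in vehicle, 11.12 to 11.17 in TCDD and 11.09 to 11.19 in Cl-BBQ arrays. Cd4 averaged 10.52, 10.58 and 10.58 in the 3 groups, and the 2 CD8 T cell markers were not called. All 5 AhR target genes listed were called higher in both groups, where 3.21% and 5.31% of all tested genes were called higher. Among them Cyp1a1, an enzyme of xenobiotic oxidation, went from 3.90 in vehicle to 5.35 with TCDD and 6.98 with Cl-BBQ. Only 2 of the 5 had a vehicle mean above the floor. Cyp1b1 and Ahrr, with vehicle arrays up to 3.92 and 4.20, passed the filter through ligand arrays only. On the lists for plasma cells, dendritic cells, neutrophils and platelets no tested marker was called. Kit, the only tested marker of mast cells and basophils, rose from 4.47 in vehicle to 5.66 with TCDD (limma adjusted p = 0.00017) and 5.28 with Cl-BBQ (adjusted p = 0.0014), while the mean of that list of 5 ran from 3.14 to 3.54, 3.39 to 3.60 and 3.49 to 3.66 in the 3 groups. Zap70, of the T cell list, rose in both comparisons (adjusted p = 0.032 and 0.027), and Pecam1, of the stromal and endothelial list, fell with TCDD (adjusted p = 0.036). These calls of Zap70 and Pecam1 were lost on leaving out any of at least 5 arrays, at up to 0.10 for Pecam1 and 0.098 for Zap70. The part of these markers in the values of the 9 genes was not tested. The labels call the arrays of a group biological replicates. The limma p-values set differences between group means against a spread between arrays, pooled over the 3 groups and moderated by other genes. In a sorted population measured in bulk, fewer cells carrying a transcript and less of it per cell cannot be told apart.

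RefSeq gave promoter windows for 6 of the 9 genes, and those of the called receptors Ccr2, Ccr4, Cxcr3 and Cxcr4 are shown because AhR, the receptor of both compounds, acts at DNA. Each is the 250 bases before the annotated start site in build GRCm38.p6, printed 5′ to 3′ on the strand of the gene. Capitals mark GCGTG, the core of the AhR response element, or CACCC, the short core bound by Krüppel-like factors, on either strand. The windows are chr9:124101933-124102182 (plus strand) for Ccr2, chr9:114496545-114496794 (minus strand) for Ccr4, chrX:101734148-101734397 (minus strand) for Cxcr3 and chr1:128592300-128592549 (minus strand) for Cxcr4.
Ccr2: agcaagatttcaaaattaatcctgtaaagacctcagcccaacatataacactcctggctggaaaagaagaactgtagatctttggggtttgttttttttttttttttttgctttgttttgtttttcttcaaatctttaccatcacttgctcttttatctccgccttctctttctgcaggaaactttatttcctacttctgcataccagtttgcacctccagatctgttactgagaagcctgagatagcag
Ccr4: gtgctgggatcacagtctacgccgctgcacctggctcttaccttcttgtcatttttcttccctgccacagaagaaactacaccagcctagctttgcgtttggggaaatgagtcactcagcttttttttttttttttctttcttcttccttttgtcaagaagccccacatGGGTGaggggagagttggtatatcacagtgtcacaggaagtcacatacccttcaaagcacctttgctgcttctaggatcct
Cxcr3: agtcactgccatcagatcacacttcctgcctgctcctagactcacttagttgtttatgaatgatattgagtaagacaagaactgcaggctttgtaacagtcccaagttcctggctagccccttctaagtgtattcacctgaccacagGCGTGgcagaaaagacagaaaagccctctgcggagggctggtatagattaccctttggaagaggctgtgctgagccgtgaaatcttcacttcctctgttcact
Cxcr4: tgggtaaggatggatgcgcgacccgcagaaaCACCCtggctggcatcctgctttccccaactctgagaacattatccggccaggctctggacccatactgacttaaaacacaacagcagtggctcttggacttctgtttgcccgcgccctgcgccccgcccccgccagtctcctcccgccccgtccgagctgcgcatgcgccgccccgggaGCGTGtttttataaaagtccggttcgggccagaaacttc
The GCGTG core was found in the windows of Cxcr3, Cxcr4 and Ccr8, at positions -103, -39 and -166 from the start site, and 28.2% of 32851 RefSeq promoters of this length hold it. The windows of Ccr2 and Ccr4, the genes with the steepest rises of the 9, did not hold those letters. The longer TNGCGTG was in none of the windows of these 6 genes and in 4.1% of all promoters. CACCC was in the windows of Ccr4, Ccr8 and Cxcr4, and in 52% of all promoters, while GTAAACA, a forkhead (FOXO) motif, was in none of the windows of these 6 genes and in 3.17% of all. Such a match is a description of the letters in the window, not a bound site.

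Ccr7, the receptor for the lymph node chemokines CCL19 and CCL21, was among the genes that did not pass the test. It read 9.56, 9.52, 8.60 and 9.15 on vehicle replicates 1 to 4. The TCDD arrays read 8.39, 8.85, 8.98 and 8.90, and the Cl-BBQ arrays read 8.92, 8.86, 8.90, 8.97 and 9.005. The ligand arrays lay inside the vehicle range except for TCDD replicate 1, and the vehicle arrays were the most scattered, with an SD of 0.44 against 0.27 for TCDD and 0.059 for Cl-BBQ. Ccr7 differed from vehicle by -0.43 (SE 0.18, adjusted p = 0.22) with TCDD and by -0.28 (SE 0.17, adjusted p = 0.38) with Cl-BBQ. Without vehicle replicate 3, the lowest vehicle array, it was called lower in both comparisons, by -0.63 with TCDD (adjusted p = 0.017) and by -0.48 with Cl-BBQ (adjusted p = 0.042). This was the only one of the 13 fits with an array left out that called it. In the others the limma adjusted p reached 0.47 with TCDD, without TCDD replicate 1, and 0.69 with Cl-BBQ, without vehicle replicate 1.

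S1pr1, the S1P receptor through which T cells leave lymphoid organs, had the smallest differences from vehicle of the 9 genes. Its 13 values lay between 9.17 and 9.59, and the group means were 9.38 ± 0.12 (SD, n = 4) for vehicle, 9.34 ± 0.13 (SD, n = 4) for TCDD and 9.40 ± 0.14 (SD, n = 5) for Cl-BBQ. The limma difference from vehicle was -0.043 (95% confidence interval -0.26 to 0.18) with TCDD and 0.021 (95% confidence interval -0.19 to 0.23) with Cl-BBQ. On the linear scale these intervals run from 0.833 to 1.13 times the vehicle level with TCDD and from 0.877 to 1.17 times with Cl-BBQ.

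Cxcr4, the receptor for CXCL12, which holds cells in bone marrow and other stromal niches, fell in both ligand groups. On vehicle replicates 1 to 4 it read 8.42, 8.45, 7.56 and 8.13. The TCDD arrays read 7.56, 7.53, 7.27 and 7.05, and the Cl-BBQ arrays read 7.46, 7.16, 7.21, 7.41 and 7.45. Every Cl-BBQ array lay below every vehicle array, while TCDD replicate 1 lay just above vehicle replicate 3. Cxcr4 fell by 0.79 (SE 0.18, adjusted p = 0.013) with TCDD, a level 1.73-fold lower, and by 0.80 (SE 0.17, adjusted p = 0.0053) with Cl-BBQ, a level 1.74-fold lower. The TCDD call was lost without vehicle replicate 1, at -0.69 (adjusted p = 0.051). All 9 proliferation markers tested fell in both groups as well, where 3.5% and 6.03% of all tested genes were called lower. Their list mean ran from 8.96 to 9.37 in vehicle, 8.06 to 8.20 in TCDD and 7.73 to 7.95 in Cl-BBQ arrays. B cells also express Cxcr4, and the mean of the 8 B cell markers with a probe set ran from 4.08 to 4.21 in vehicle, 3.81 to 3.95 in TCDD and 3.74 to 4.00 in Cl-BBQ arrays. Of the 5 B cell markers tested only Cd22 was called, falling from a mean of 6.17 in vehicle to 4.03 with TCDD and 4.10 with Cl-BBQ. Its ligand arrays read at most 4.22 with TCDD and 4.29 with Cl-BBQ, so it passed the filter through vehicle arrays only. Cd22 passed the filter in 9 of the 13 fits with an array left out and was called in each of those. Cd79a, Cd79b, Pax5 and Blk were not called, and their means lay above the floor of 4.31 in every group. Among them Cd79b averaged 4.69, 4.79 and 5.33 in the 3 groups. Ms4a1, which encodes CD20, was under the floor in every group, with means of 2.58, 2.62 and 2.69, as were Cr2 and Fcer2a. The part of either list in the fall of Cxcr4 was not tested.

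Among receptors for chemokines of inflamed tissue, Ccr2, which binds CCL2 and guides monocytes and effector T cells, rose in both groups. It read 5.43, 5.36, 5.12 and 5.16 on vehicle replicates 1 to 4. The TCDD arrays read 6.80, 6.65, 6.98 and 6.64, and the Cl-BBQ arrays read 6.92, 7.17, 7.41, 6.80 and 6.94. All 9 ligand arrays lay above all 4 vehicle arrays, and the lowest of them was above the highest vehicle array by more than any group's own range. The level was 2.83-fold higher with TCDD (log2 difference 1.50, SE 0.14, adjusted p = 7.9e-06) and 3.43-fold higher with Cl-BBQ (log2 difference 1.78, SE 0.13, adjusted p = 3.4e-07). It ranked 37th with TCDD and 40th with Cl-BBQ among the 12710 genes ordered from the steepest rise. Ccr2 is also a marker of monocytes, and 5 of 9 genes on the monocyte and macrophage list passed the filter. The mean over all 9 ran from 4.61 to 4.84 in vehicle, 4.37 to 4.58 in TCDD and 4.38 to 4.63 in Cl-BBQ arrays. Means above the floor of 4.31 were found for 5 of the 9 in vehicle, 3 in TCDD and 3 in Cl-BBQ arrays. Cx3cr1 was above it in every group, at 5.19, 5.14 and 5.24. Csf1r and Fcgr1 were above it in vehicle only, at 4.43 and 4.34, and none of these 3 was called. Lyz2, an abundant transcript of monocytes, averaged 3.13, 2.35 and 2.89 in the 3 groups and Cd14 averaged 2.94, 2.70 and 2.65, all under the floor. On the same list Cd68 rose and Ly6c2 fell in both comparisons, and each of these calls was lost on leaving out any of at least 5 arrays (adjusted p up to 0.13 for Cd68 and 0.11 for Ly6c2). The part of monocytes in the rise of Ccr2 was not tested.

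Cxcr3, the receptor for the interferon-induced chemokines CXCL9 and CXCL10 and a feature of type 1 effector cells, rose with Cl-BBQ. It read 8.78, 8.08, 8.19 and 8.58 on vehicle replicates 1 to 4. The TCDD arrays read 8.87, 8.59, 8.93 and 8.95, and the Cl-BBQ arrays read 8.89, 9.01, 8.80, 9.18 and 8.91. The Cl-BBQ arrays all lay above the vehicle arrays, with Cl-BBQ replicate 3 barely above vehicle replicate 1, and TCDD replicate 2 lay within the vehicle range. The difference was 0.55 (SE 0.14, adjusted p = 0.019) with Cl-BBQ, a 1.46-fold higher level, and 0.43 (SE 0.15, adjusted p = 0.12) with TCDD. The Cl-BBQ call was lost without vehicle replicate 2 (0.44, adjusted p = 0.070) or vehicle replicate 3 (0.48, adjusted p = 0.070), and the TCDD difference was called without vehicle replicate 1 (0.55, adjusted p = 0.037). The difference between the ligand groups was 0.12 (95% confidence interval -0.18 to 0.42), so a response of Cxcr3 to Cl-BBQ alone was not shown.

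Ccr4, Ccr6 and Ccr8 mark subsets of T cells, and of these Ccr4 alone was called. Ccr4, the receptor for CCL17 and CCL22 found on type 2, skin-homing and regulatory T cells, rose in both groups. Its vehicle arrays read 6.33, 6.74, 5.97 and 6.19, its TCDD arrays 7.84, 8.17, 7.66 and 7.55, and its Cl-BBQ arrays 8.03, 7.82, 8.70, 7.95 and 8.10. The lowest ligand array, TCDD replicate 4, stood above the highest vehicle array, replicate 2, and Cl-BBQ replicate 3 was the highest of all. Ccr4 was 2.82-fold higher with TCDD (log2 difference 1.50, SE 0.20, adjusted p = 0.00023) and 3.51-fold higher with Cl-BBQ (log2 difference 1.81, SE 0.19, adjusted p = 1.2e-05), ranking 38th and 37th from the steepest rise. On the regulatory T cell list of 6 genes, 3 rose and 1 fell with TCDD, and 3 rose and 2 fell with Cl-BBQ. Called shares over all tested genes were 6.71% and 11.3%. In vehicle, TCDD and Cl-BBQ arrays Ctla4 averaged 8.47, 9.18 and 9.28, Il2ra 7.43, 8.09 and 8.41, and Tnfrsf18 8.92, 9.36 and 9.61. Nrp1 fell in both groups, averaging 7.78, 4.91 and 4.90. Ikzf2, at 8.93, 8.49 and 8.37, was called lower with Cl-BBQ only. Foxp3, the defining factor of that lineage, was not called, at 7.45 ± 0.21 (SD, n = 4) in vehicle, 7.17 ± 0.34 (SD, n = 4) in TCDD and 7.17 ± 0.23 (SD, n = 5) in Cl-BBQ arrays. The part of regulatory T cells in the rise of Ccr4 was not tested.

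Ccr6, the receptor for CCL20 carried by type 17 cells, was above the floor on 6 of 13 arrays and lay between 3.90 and 4.67. Its difference was 0.20 (95% confidence interval -0.13 to 0.52) with TCDD and 0.093 (95% confidence interval -0.22 to 0.40) with Cl-BBQ, with adjusted p of 0.57 and 0.78. Ccr8, a receptor of type 2 and tissue regulatory T cells, was above the floor on 8 of 13 arrays. All 4 vehicle arrays were among them, at 4.62 to 5.11, while the ligand arrays were scattered from 2.75 on Cl-BBQ replicate 1 to 5.03 on Cl-BBQ replicate 4. Ccr8 differed from vehicle by -0.44 (SE 0.39, adjusted p = 0.64) with TCDD and by -0.73 (SE 0.37, adjusted p = 0.26) with Cl-BBQ. Without Cl-BBQ replicate 1 the latter was -0.36, so that array moved the value more than any other. At this signal neither gene allows a statement on its direction.

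Selplg, which encodes PSGL-1, rose in both ligand groups, whose arrays lay close together, with an SD of 0.077 for TCDD and 0.056 for Cl-BBQ. Its vehicle arrays read 10.73, 10.71, 10.25 and 10.66, its TCDD arrays 11.47, 11.33, 11.46 and 11.34, and its Cl-BBQ arrays 11.59, 11.59, 11.61, 11.71 and 11.58. The 3 groups did not overlap: all TCDD arrays lay above all vehicle arrays, and all Cl-BBQ arrays above all TCDD arrays. Selplg was 1.76-fold higher with TCDD (log2 difference 0.81, SE 0.11, adjusted p = 0.00019) and 2.04-fold higher with Cl-BBQ (log2 difference 1.03, SE 0.10, adjusted p = 6.3e-06). It is the only gene of the 9 with a further probe set, which averaged 9.90 in vehicle, 10.82 in TCDD and 11.07 in Cl-BBQ arrays. That probe set rose by 0.91 (SE 0.084, adjusted p = 6.9e-05) with TCDD and by 1.16 (SE 0.079, adjusted p = 2.9e-06) with Cl-BBQ.

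**Figure D2:**
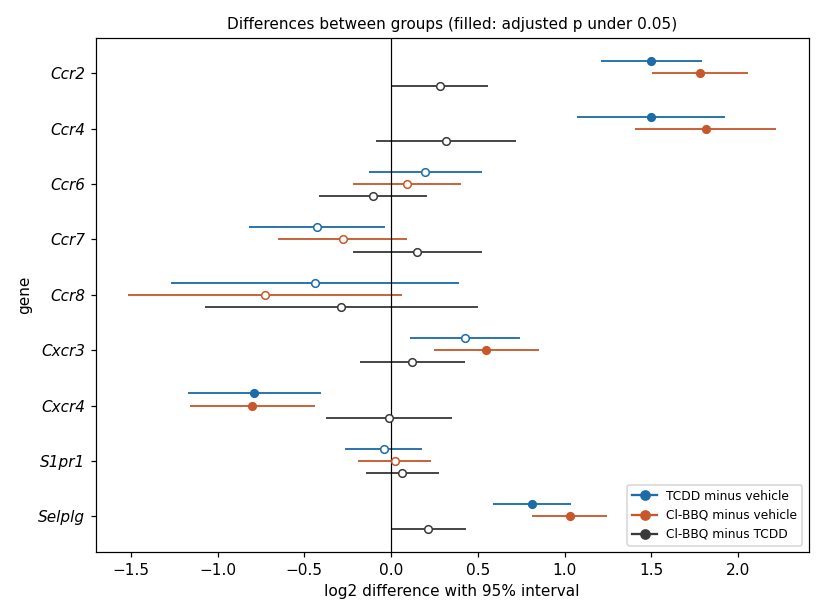
Differences in log2 intensity for the 9 genes in the 3 comparisons, with 95% confidence intervals from the limma model. Filled points have an adjusted p under 0.05: Ccr2, Ccr4, Selplg and Cxcr4 in both comparisons with vehicle, Cxcr3 in Cl-BBQ against vehicle, and none in Cl-BBQ against TCDD.

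Counted by separation of the arrays, 3 of the 9 genes had TCDD arrays that did not overlap the vehicle arrays, against 13.6% of all tested genes. With Cl-BBQ this held for 5 of the 9, against 12.9% of all. The groups accounted for 95.3% of the variance of Ccr2 over the 13 arrays, 93.3% of that of Selplg and 88.9% of that of Ccr4. The share was 69.5% for Cxcr4, 59.1% for Cxcr3, 31.8% for Ccr7, 22.2% for Ccr8, 12.9% for Ccr6 and 5.19% for S1pr1, and the median over all tested genes was 20.1%. Ccr6 and S1pr1 were below that median, and Ccr8 was close to it.

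Set directly against each other, the Cl-BBQ and TCDD groups differed in none of the 9 genes, where 0.0236% of all tested genes, 3 in number, were called by limma. At an unadjusted p under 0.05, 2 of the 9 differed. Ccr2 was 0.28 higher with Cl-BBQ (95% confidence interval 0.0065 to 0.56, adjusted p = 0.76) and Selplg 0.22 higher (95% confidence interval 0.00058 to 0.43, adjusted p = 0.78). Selplg was the 1 gene of the 9 whose Cl-BBQ and TCDD arrays did not overlap, against 2.11% of all tested genes. For Ccr4 the difference was 0.32 (95% confidence interval -0.09 to 0.72), and for Cxcr4 it was -0.012 (95% confidence interval -0.37 to 0.35). The interval was widest for Ccr8, from -1.07 to 0.50, so the groups are not shown to act alike on these genes.

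The neighbouring receptor genes were given by a list of 22 other chemoattractant receptors, of which 14 could be tested. With TCDD 4 rose and 1 fell, and with Cl-BBQ 5 rose and 1 fell, with a list median of 0.19 in both. The shares called among all tested genes were 6.71% and 11.3%. Cxcr6, the receptor for CXCL16, rose by 2.76 (SE 0.16, adjusted p = 6.0e-08) with TCDD and 3.06 (SE 0.15, adjusted p = 6.0e-09) with Cl-BBQ. Gpr15, a homing receptor of the colon, went from a mean of 3.97 in vehicle, under the floor, to 8.26 with TCDD and 8.55 with Cl-BBQ. Ccr9, which guides cells to the small intestine, was likewise under the floor in vehicle, at 4.06, and reached 5.67 and 5.95. On vehicle arrays Gpr15 read 3.62 to 4.77 (median 3.74) and Ccr9 read 3.67 to 4.54 (median 4.02). Both genes thus owe passing the filter to the ligand arrays, and their rises carry less weight in these counts. Ccrl2, called higher with Cl-BBQ, also had a vehicle mean under the floor, at 4.23. Ptger4, a receptor for prostaglandin E2, fell by 0.59 (adjusted p = 0.010) and 0.72 (adjusted p = 0.00089). On a list of 14 ligands of the 9 genes' receptors, 3 could be tested (Ccl7, Cxcl10 and Cxcl12), and limma called none in either comparison, with none at an unadjusted p under 0.05.

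Of 12 genes of the S1P axis, 11 could be tested, and 1 rose with TCDD and 2 with Cl-BBQ, with list medians of 0.021 and 0.056. Over all tested genes 6.71% were called with TCDD and 11.3% with Cl-BBQ, and with 11 genes these counts stay close to that. Cd69, whose protein binds S1PR1 and removes it from the cell surface, read 7.41, 7.73, 7.54 and 7.63 on the vehicle arrays. It read 8.51, 8.80, 8.71 and 8.77 on the TCDD arrays and 8.95, 8.74, 9.19, 8.88 and 9.10 on the Cl-BBQ arrays, all above vehicle. Its rise was 1.12 (SE 0.11, adjusted p = 2.2e-05) with TCDD and 1.40 (SE 0.11, adjusted p = 6.9e-07) with Cl-BBQ. S1pr4, a further S1P receptor of lymphocytes, rose by 0.44 (SE 0.099, adjusted p = 0.0087) with Cl-BBQ and was 0.21 above vehicle (adjusted p = 0.32) with TCDD. Klf2, the factor that drives S1pr1 transcription, differed by 0.021 (adjusted p = 0.95) and -0.030 (adjusted p = 0.91). The arrays measured transcripts, and surface S1PR1 was not measured.

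Selectin ligands need sugar and sulfate groups added to PSGL-1, and 13 of 18 listed genes of this pathway could be tested. With TCDD 4 rose and none fell, and with Cl-BBQ 6 rose and none fell, with medians of 0.21 and 0.27. Of all tested genes 6.71% were called with TCDD and 11.3% with Cl-BBQ. Gcnt1, the core-2 branching enzyme, read 6.46, 6.35, 5.92 and 5.82 in vehicle, 7.56, 7.42, 7.13 and 7.27 in TCDD, and 7.16, 7.46, 7.44, 7.16 and 7.42 in Cl-BBQ arrays. The ligand arrays of Gcnt1 lay above all vehicle arrays, and it rose by 1.21 (SE 0.15, adjusted p = 0.00013) with TCDD and 1.19 (SE 0.14, adjusted p = 3.8e-05) with Cl-BBQ. St3gal6, a sialyltransferase, rose from a vehicle mean of 4.44 to 5.71 and 6.09, by 1.27 (adjusted p = 4.2e-05) and 1.65 (adjusted p = 8.8e-07). Tpst2, which sulfates tyrosines, rose from 8.22 to 8.84 and 9.07, by 0.62 (adjusted p = 0.0012) and 0.85 (adjusted p = 2.3e-05). B4galt1, a galactosyltransferase, was 0.29 above vehicle (adjusted p = 0.14) with TCDD and rose by 0.46 (adjusted p = 0.0063) with Cl-BBQ. St3gal3 also rose in both comparisons. Its Cl-BBQ call held with any array left out (adjusted p up to 0.028). The TCDD call was lost without vehicle replicate 1, vehicle replicate 3 or TCDD replicate 3, reaching an adjusted p of 0.059. Galnt3 was called higher with Cl-BBQ, but its group means of 3.87, 4.22 and 4.26 were all under the floor. Its vehicle arrays read 3.64 to 4.03, so it passed the filter through ligand arrays only. Galnt3 passed the filter in 9 of the 13 fits with an array left out, and its Cl-BBQ call was lost in 6 of those, reaching 0.16. Its rise therefore carries little weight in the count of 6. Fut7, the fucosyltransferase that completes the selectin-binding sugar, had group means under the floor, at 4.21, 4.09 and 3.98.

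**Figure D3:**
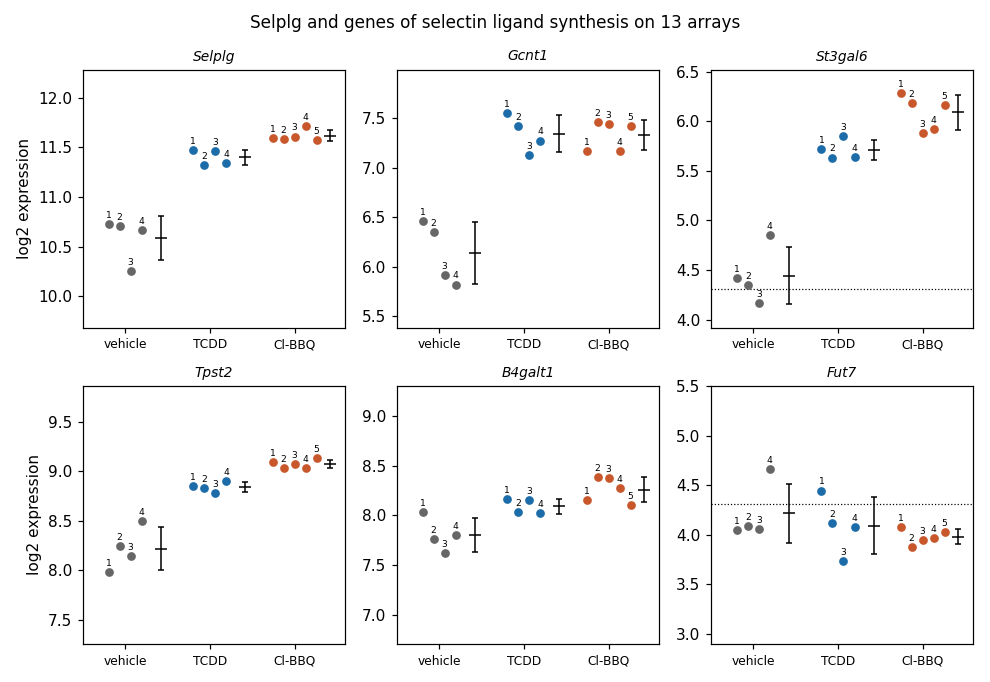
Deposited log2 intensity by array for Selplg and 5 genes that modify selectin ligands, in vehicle, TCDD and Cl-BBQ groups, with the mean and its SD as a black bar. Gcnt1, St3gal6 and Tpst2 show every ligand array above every vehicle array, and Fut7 lies around or under the dotted floor of the filter.

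Signalling downstream of these receptors was followed in 34 listed genes, 30 of them tested. With TCDD 4 rose and none fell (median 0.097), where 6.71% of all tested genes were called. With Cl-BBQ 6 rose and none fell (median 0.070), where 11.3% of all were called. Pik3r5, a regulatory subunit of the G protein-driven PI3 kinase, rose by 1.15 (SE 0.11, adjusted p = 1.1e-05) and 1.43 (SE 0.10, adjusted p = 3.4e-07). Rgs1, which ends G protein signals from chemokine receptors, rose by 0.81 (adjusted p = 0.0050) and 0.60 (adjusted p = 0.016). Rasgrp2, an activator of the integrin switch Rap1, rose by 0.43 (adjusted p = 0.032) and 0.78 (adjusted p = 0.00013). Dock2, a Rac activator needed for lymphocyte migration, rose by 0.41 (adjusted p = 0.0046) with Cl-BBQ and was 0.30 above vehicle (adjusted p = 0.065) with TCDD. The calls that depended on single arrays were Rasgrp2 with TCDD, lost on leaving out any of 7 arrays (adjusted p up to 0.095), and Rgs1 with Cl-BBQ, lost without vehicle replicate 1 or 4 (up to 0.062). Dock2 with TCDD was called without vehicle replicate 3 (0.045).

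A list of 24 regulators of trafficking receptor genes had 20 tested members. Of these 2 rose and 1 fell with TCDD and 6 rose and 2 fell with Cl-BBQ, with medians of 0.14 and 0.18. Among all tested genes 6.71% and 11.3% were called. Runx3, a factor of type 1 and cytotoxic programmes, rose by 0.62 (SE 0.084, adjusted p = 0.00027) with TCDD and 0.86 (SE 0.079, adjusted p = 3.5e-06) with Cl-BBQ. Prdm1, which encodes Blimp-1, a repressor active in effector cells, rose by 1.02 (adjusted p = 0.011) and 1.13 (adjusted p = 0.0021). Tbx21, the type 1 factor that drives Cxcr3, rose by 0.64 (adjusted p = 0.0088) with Cl-BBQ and was 0.34 above vehicle (adjusted p = 0.26) with TCDD. Bcl6, the factor of follicular helper cells, fell by 0.73 (adjusted p = 0.00032) with Cl-BBQ and differed by -0.38 (adjusted p = 0.064) with TCDD, where it was called without vehicle replicate 3 (0.020). On the filter set 1 log2 unit higher, the TCDD counts of this list were 5 higher and 2 lower.

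**Figure D4:**
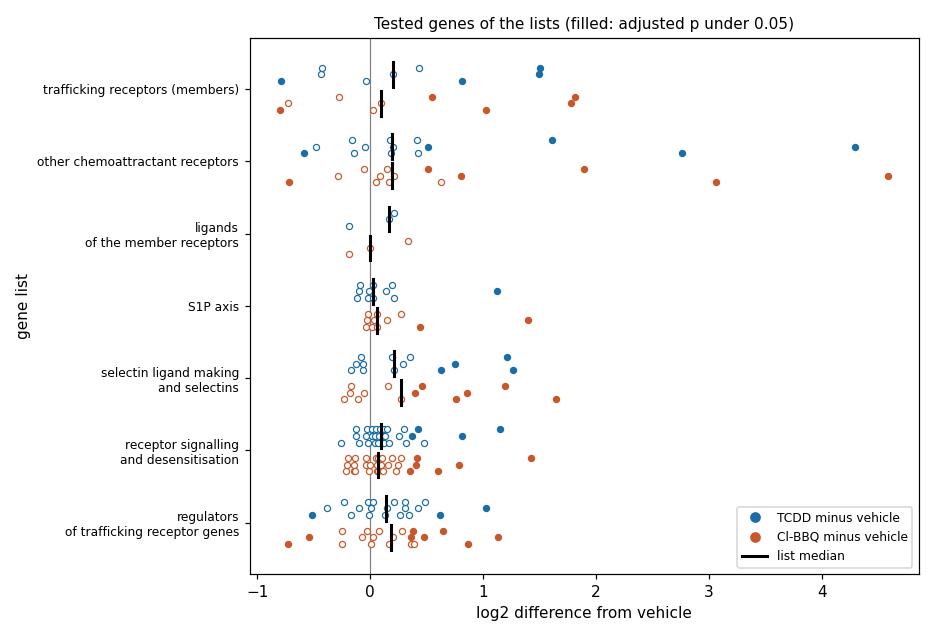
Log2 differences from vehicle for every tested gene of the 9 trafficking genes and the 6 pathway lists, with TCDD and Cl-BBQ side by side. Each point is a gene, filled where its adjusted p was under 0.05, and the black bar is the list median, which lay between -0.0044 and 0.27 for all of them.

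The genes most like each called gene over the 13 arrays were found by the root mean square difference after centring each gene on its own mean. Predicted genes and clones were left out. With only 3 groups this likeness mostly follows the group means. For Ccr2 they were Rtn4rl1 (0.210), Mcoln2 (0.221) and Il18r1 (0.231), where the median over the tested genes that remained was 0.814. For Ccr4 they were Lgals3 (0.228), Ccr2 (0.247) and Mcoln2 (0.251), against a median of 0.849, so Ccr2 and Ccr4 resembled each other. For Selplg they were Sla2 (0.103), Galnt6 (0.116) and Ctsa (0.125), against 0.493. For Cxcr4 they were Cenpm (0.157), Trim37 (0.189) and H2ax (0.192), against 0.477. For Cxcr3, whose change was smaller, they were Dusp7 (0.136), Fyco1 (0.141) and Osgin1 (0.141), against 0.364.

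**Figure D5:**
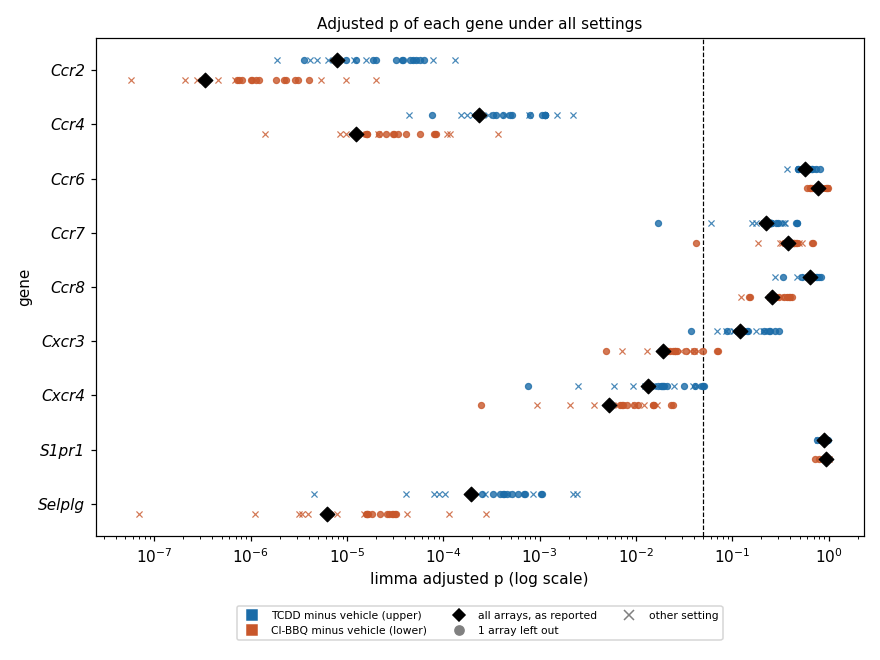
Adjusted p from limma (log axis) of each of the 9 genes against vehicle under every setting tried, with TCDD in the upper and Cl-BBQ in the lower row of each gene. Diamonds are the reported values, dots leave out 1 array, crosses are other settings, and the dashed line is 0.05: Ccr2, Ccr4 and Selplg stay left of it throughout, while Ccr7, Cxcr3 and the TCDD value of Cxcr4 have dots on the other side of it.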

How the data were processed

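RNA of sorted donor CD4+ cells was measured on 13 single-colour mouse arrays after labelling of 3 µg RNA with oligo-dT primers, per the labels' protocols. The authors deposited log2 intensities for 41345 probe sets, made by RMA per the submitters' processing notes, which correct the background, normalize arrays by quantiles and summarise probes, so levels of different genes cannot be compared. Of these probe sets 23521 name 1 gene symbol, 1814 several, and 16010 are unnamed. Each of 22180 genes was given by its probe set with the highest mean, and 12710 genes were tested that exceeded the median of all values, 4.31, on at least 4 arrays. Differences were tested with limma 3.58.1 in R 4.3.3 in 1 model of the 3 group means (10 residual degrees of freedom), with Benjamini-Hochberg adjustment over all 12710 genes and calls at 0.05. The model was tested on simulated data. The pathway lists cover other chemoattractant receptors, ligands, the S1P axis, selectin ligands, signalling and regulators. From each, up to 4 called genes with the smallest adjusted p were named, and for each called member the 3 most alike genes. Genes named beyond this rule (St3gal3, Galnt3, Fut7, Klf2, Ccl7, Cxcl10, Cxcl12, Kit, Zap70, Pecam1, Il7r, Gzma, Ahrr, Ctla4, Il2ra, Tnfrsf18, Nrp1, Ikzf2, Ccrl2) were chosen after their values were seen. The members and lists were chosen with earlier results of these data known. Alternatives were other filters, probe set rules, scalings, priors, weights, a block and leaving out each array. The authors' probe design build was not given in the sources used here.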

Additional observations from a re-analysis of the deposited data

Results flagged for a closer look

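Among 27 sets of values, the 9 genes in each of 3 groups, 3 had an array that stood apart from the rest of its group by Dixon's criterion, which chance meets in about 1 of 20 groups. Ccr8 read 4.62 on vehicle replicate 1, below the other vehicle arrays, the nearest of which read 5.05, and that gap was 0.878 of the group's range. Selplg read 10.25 on vehicle replicate 3, where the nearest vehicle array read 10.66, a gap of 0.867 of the range. Selplg read 11.71 on Cl-BBQ replicate 4, where the nearest Cl-BBQ array read 11.61, a gap of 0.767 of the range.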

How the results depend on the processing

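The calls of the 9 genes were unchanged, in all 3 comparisons, under the 10 alternatives other than leaving out single arrays. Among these alternatives, the fit of only the 2 groups compared dropped the arrays of the other group. Ccr6 and Ccr8 did not pass the stricter filter and have no value there. Replicate numbers did not pair the arrays: same-numbered arrays deviated together with correlations of -0.059 to 0.075. With the replicate number as a block, the difference of Ccr6 with Cl-BBQ was -0.017 (adjusted p = 0.96), and 0 genes were called between Cl-BBQ and TCDD. That count, 3 as reported, was also 0 without the filter, with all probe sets tested and with only the 2 groups compared, 5 with the mean of probe sets or repeated quantile normalization, 6 with the stricter filter or a trended and robust prior, and 7 with array weights. Leaving out 1 array at a time gave 640 to 961 genes called with TCDD, 1179 to 1434 with Cl-BBQ and 0 to 5 between them. The further probe set of Selplg read 9.90 in vehicle, 10.82 in TCDD and 11.07 in Cl-BBQ arrays.

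With 1 array left out, differences with TCDD ranged from -0.63 to -0.30 for Ccr7, 0.32 to 0.55 for Cxcr3, -0.98 to -0.69 for Cxcr4 and -0.092 to 0.016 for S1pr1. With Cl-BBQ they ranged from -0.48 to -0.16 for Ccr7, 0.44 to 0.67 for Cxcr3, -0.017 to 0.16 for Ccr6 and -0.028 to 0.074 for S1pr1. Between Cl-BBQ and TCDD they ranged from -0.11 to 0.057 for Cxcr4 and -0.49 to 0.084 for Ccr8. The sign changes were in uncalled differences only. The cause of the call changes was not tested. Without vehicle replicate 3, a choice made after seeing the data, 3 of the 9 genes were higher and 2 lower in each ligand group. The number of arrays limits the precision, and signals near the floor limit Ccr6 and Ccr8.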

Other observations

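Other markers of the sorted cells moved with the groups. Il7r, the interleukin-7 receptor chain on the naive T cell list, was 1.36 above vehicle on the log2 scale with TCDD (limma adjusted p = 0.00023) and 2.53 above it with Cl-BBQ (adjusted p = 2.3e-07), and its 1.16 difference between the ligand groups was called (adjusted p = 0.039) but lost on leaving out any of 9 arrays, at up to 0.15. Gzma, a granule protease and the only called gene of the 4 tested on the natural killer cell list, rose by 3.45 with TCDD (adjusted p = 2.3e-08) and by 4.66 with Cl-BBQ (adjusted p = 5.3e-10). Of all tested genes 6.71% were called with TCDD and 11.3% with Cl-BBQ. Gzma was also called higher with Cl-BBQ than with TCDD, a call lost on leaving out any of 8 arrays (limma adjusted p up to 0.15).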
